A study of Mus musculus and Homo sapiens with 22 samples.

Results

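The comparison described here is TAK901 at 1 µM against its solvent DMSO in cells labelled 4T1, read from bulk RNA-seq. Its members were chosen by their labels and file naming, not by their values: the 2 libraries of TAK901 1 µM (replicates 1 and 2) and the DMSO libraries numbered 3 and 4, which are 4 of the 22 libraries of the series and 4 of its 12 libraries labelled 4T1. Cells were plated for 24 h in 6-well plates and then exposed for 24 h, and no other agent is named for either group. DMSO 3 and 4 served as controls because their files are named in the same way as those of TAK901, and the labels do not say which DMSO libraries go with which compound. DMSO 1 and 2, whose files follow the other naming, were not used, and 2 libraries of TAK901 at 2 µM served only for a comparison of the doses. The question was which genes and gene groups differed from DMSO at the lower dose, and how that dose differed from the higher one.

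TAK901 is known as an inhibitor of Aurora kinases. Aurora A matures centrosomes and builds the spindle together with its activator Tpx2, and Aurora B works at centromeres and the midzone in a complex with Incenp, survivin (Birc5) and borealin (Cdca8). Transcripts of these proteins and of most mitotic genes are made in G2 and M phase, those of the replication machinery at the G1/S boundary under E2F factors, and those of ribosome assembly with growth, where Myc is a known driver. 4T1 is an established mammary carcinoma line from a female BALB/c mouse.

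Gene counts summed to 22.1 and 24.8 M reads in DMSO 3 and 4, 15.9 and 27.1 M with TAK901 1 µM, and 6.00 and 3.75 M with 2 µM. TAK901 1 µM replicate 1 stood apart in its share of records that did not align, 40.1% against 16.4 to 26.7% in the other 3 libraries. The labels do not say that replicates came from separate cultures, so every p below measures the spread between these libraries only, which may be technical. The label 4T1 was checked against markers, and the Y-linked and endoderm genes went against it. 4T1 is from a female, and DMSO 1 and 2, of the same label, differed. The Y-linked genes Uty, Kdm5d, Eif2s3y and Ddx3y summed to 259 to 270 CPM (reads per 1 M gene reads) in each of the 4 libraries, against 0 in DMSO 1 and 2. Hnf4a, which drives gut and liver epithelial programmes, stood at 227 and 220 CPM in DMSO 3 and 4. With TAK901 1 µM it stood at 262 and 269 CPM, and it had 0 reads in DMSO 1 and 2. TAK901 at 2 µM resembled the 4 libraries, with Y-linked sums of 273 and 268 CPM and Hnf4a at 249 and 255 CPM. The mammary markers differed from DMSO 1 and 2 in both directions. Ltf had 160 and 172 reads in DMSO 3 and 4 against 0 and 1 in DMSO 1 and 2. Gata3 stood lower in DMSO 3 and 4, at 33.7 and 36.4 CPM against 89.8 and 93.3 CPM. Above 1 CPM were 7 of 23 markers in DMSO 1 and 2. Of the 23 mammary markers 10 were above 1 CPM in each of the 4, Csn2, Wap and Lalba (milk proteins) were at 0 reads in all 4 libraries, and Elf5, Krt5, Pgr and Prlr had at most 6 reads. All 12 pan-epithelial markers were above 1 CPM, and so were 11 of 20 endoderm transcription factors. Among 19 haematopoietic markers Cd3e, Cd3d and Tyrobp were at 0 reads, and the summed level of 143 to 188 CPM came almost wholly from Cd14. The summed levels of 12 fibroblast markers (19.6 to 26.7 CPM) and 10 endothelial markers (22.4 to 27.9 CPM) came mostly from Pdgfra and Eng, and the fibroblast genes Thy1 and Dpt were at 0 reads. Of 3 tested fibroblast markers Pdgfra (log2 fold change 0.46) and Postn (1.15) rose with TAK901 1 µM and Col1a1 fell (-0.51). The Col1a1 call was lost in 6 of 13 alternative settings and the Postn call in 1 of 12. Of 4 tested endothelial markers Eng rose (0.30), a call lost in 4 of 14 alternative settings. The part of such cells in the results below was not tested. The libraries are therefore called by their label and are given no other cell type name.

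At 1 µM the response was broad and shallow. Of 14493 genes tested 3719 differed from DMSO (25.7%), 1729 higher (11.9%) and 1990 lower (13.7%). Every count of list members below is to be read beside these shares. Tests were edgeR quasi-likelihood with Benjamini-Hochberg adjustment over all genes tested and a threshold of 0.05, and every adjusted p below comes from them unless another test is named. Most changes were small: the median size among the changed genes was 0.28 on the log2 scale, 3274 of them (88.0%) changed by less than 1.5-fold, and 102 rose and 68 fell by more than 2-fold. The 2 groups did not overlap in 8861 genes (61.1%), so non-overlap alone says little here. Levels below are CPM after TMM scaling (a library-size correction that assumes most genes are unchanged), in the order DMSO 3, DMSO 4, TAK901 replicate 1, TAK901 replicate 2. DESeq2 called 1918 genes on the same counts, and without TAK901 replicate 2 edgeR called 2190.

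**Figure D1:**
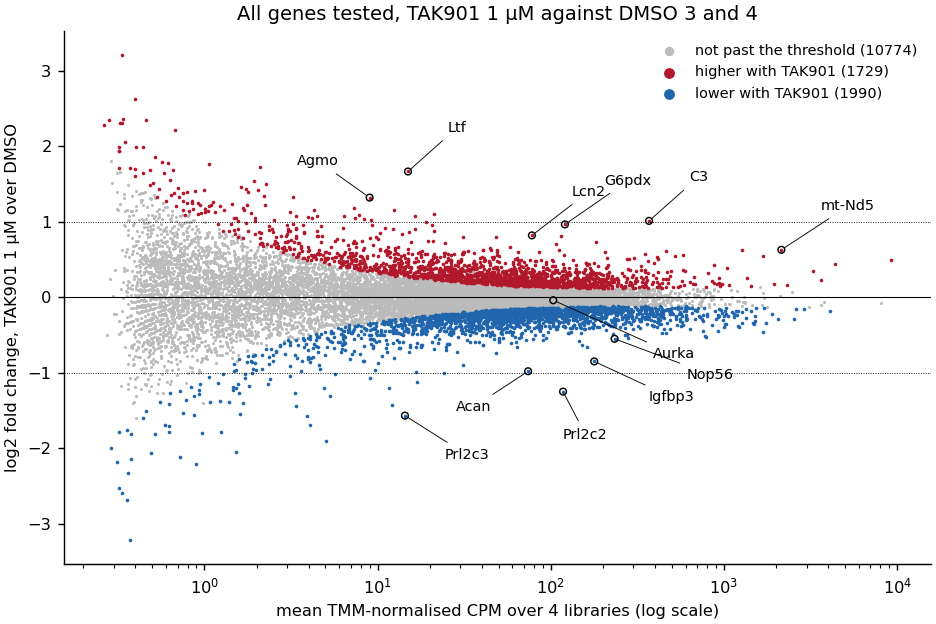
Log2 fold change of TAK901 1 µM over DMSO (vertical axis) against the mean CPM of a gene over the 4 libraries (horizontal axis, log scale), 1 point per gene tested. Red points are the 1729 genes that rose and blue points the 1990 that fell at an adjusted p under 0.05, dotted lines mark a 2-fold change, and most coloured points lie between those lines.

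The kinases that the compound is known to inhibit changed little at the transcript level. Aurka, which encodes Aurora A, stood at 113, 96.8, 99.3 and 104 CPM. Its TAK901 values lay between those of DMSO, and it did not pass the test (log2 fold change -0.04, SE 0.06, adjusted p = 0.681). Aurkb, which encodes Aurora B, stood at 114, 111, 95.9 and 106 CPM and fell by 0.15 on the log2 scale (SE 0.05, adjusted p = 0.0354). Birc5 stood at 130, 137, 120 and 123 CPM and fell by 0.14 (adjusted p = 0.0316). In both genes the TAK901 libraries lay below both DMSO libraries by small margins, and the calls were lost in 6 and 7 of 14 alternative settings. Incenp (log2 fold change -0.01, adjusted p = 0.934, and above 0 when libraries were scaled by total count), Cdca8 (-0.04, adjusted p = 0.640) and Tpx2 (0.08, adjusted p = 0.161) did not pass. Aurkc had too few reads to be tested. Over 11 tested members of a list of Aurora kinases and partners 1 rose and 4 fell; the median log2 fold change was -0.04, beside 0.0034 for all genes tested. The member that rose was Nedd9, a scaffold protein that activates Aurora A, at 80.5, 74.5, 93.5 and 94.3 CPM (log2 fold change 0.28, adjusted p = 2.56e-04). The falls were weak: leaving out a library gave 1 without DMSO 3, 2 without DMSO 4, 0 without TAK901 replicate 1 and 1 without replicate 2, and both total-count scaling and DESeq2 gave 0.

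Mitotic genes moved in both directions, with a share of falls near that of all genes. Of 39 tested members 9 rose (23.1%) and 5 fell (12.8%), against 11.9% and 13.7% of all genes, with a median of 0.05. The rises included Ckap2, a spindle protein, at 123, 124, 154 and 159 CPM (log2 fold change 0.34, SE 0.05, adjusted p = 3.3e-06). Cenpe, a kinetochore motor, stood at 243, 215, 284 and 289 CPM and rose by 0.33 (adjusted p = 1.72e-05). Sgo2a, a guardian of centromeric cohesion, Knl1, a kinetochore scaffold, Nusap1, Cenpf, Hmmr, Kif20b and Kif20a were the other rises, between 0.14 and 0.29. Falls were smaller and included Top2a, which untangles DNA, at 1013, 1008, 894 and 904 CPM (log2 fold change -0.17, adjusted p = 0.00596) and Cdk1, the kinase that starts mitosis, at 213, 216, 193 and 189 CPM (-0.17, adjusted p = 0.00637). Plk1 (-0.01), Bub1b (0.07) and Cdc20 (0.07) did not pass. Without TAK901 replicate 2 the counts were 4 rises and 0 falls, without replicate 1 they were 8 and 1, without DMSO 3 they were 8 and 3, and without DMSO 4 they were 6 and 3.

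Replication genes fell together. Of 40 tested members 31 fell and 0 rose, where 13.7% of all genes fell, and the median log2 fold change was -0.24. All 40 had a value below 0, from -0.60 to -0.08. These are bulk libraries, in which fewer cells in a phase and less RNA per cell cannot be told apart. Gins1, a subunit of the replicative helicase, stood at 27.6, 26.5, 18.1 and 17.5 CPM (log2 fold change -0.60, adjusted p = 5.6e-06). Tk1, thymidine kinase, stood at 177, 171, 127 and 124 CPM (-0.47, adjusted p = 2.41e-08). In both genes the TAK901 libraries lay well below both DMSO libraries, and the replicates of each group lay close together. Rrm2, the regulated subunit of ribonucleotide reductase, fell from 282 and 288 to 212 and 221 CPM (-0.40, adjusted p = 2.26e-07). The helicase genes Mcm2 to Mcm7 fell by 0.15 to 0.31, and Pcna, the sliding clamp, fell by 0.22. Members that missed the threshold, such as Pole (-0.12) and Gins3 (-0.15), had values of the same sign. The count of falls lay between 26 and 32 over all the alternative settings.

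Among 24 tested regulators of the G1/S step 11 fell (45.8%), 3 rose and 10 did not pass, with a median of -0.14. Ccne1, which encodes cyclin E1, stood at 19.5, 18, 11.6 and 12.5 CPM (log2 fold change -0.63, SE 0.10, adjusted p = 3.05e-05). Ccnd2 (cyclin D2) fell from 253 and 272 to 207 and 208 CPM, and Ccnd1 (cyclin D1) from 1091 and 1065 to 991 and 963 CPM (-0.34 and -0.14). E2f1, an activator of S phase genes, fell by 0.20 (adjusted p = 0.0151), and E2f7 and E2f8, repressors of the same family, fell by 0.38 and 0.33. The 3 rises were in brakes of this step: Rb1, the retinoblastoma protein that restrains E2F, at 20.9, 23.1, 28.3 and 29.1 CPM (0.38, adjusted p = 8.73e-04), Cdkn1a, the p21 inhibitor (0.22, adjusted p = 0.00201), and Cdkn1b, the p27 inhibitor (0.19, adjusted p = 0.00459). Cdkn2a, which encodes p16 and ARF, stood at 94.3, 86.9, 85.6 and 79.7 CPM and did not pass (-0.14, adjusted p = 0.0711).

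Since the replication genes moved as a group, their promoters were read for the E2F motifs TTTCCCGC and TTTGGCGC on both strands, in a window of 250 bases before to 50 bases after each RefSeq start. Of the 40 members 32 matched the promoter table, and 12 of them (37.5%) held one, beside 1.8% of the 27025 genes in it. A gene counted if any of its promoters held the motif. Of the mitotic genes 0 of 36 matched held an E2F motif. A CHR element (TTTGAA or TTCGAA) stood in 27 of them (75.0%), beside 21.7% of all genes with RefSeq promoters. A match is a description of these letters and not a binding site. The shares cover all matched members, whether or not they changed, so they describe the lists and not the treatment. The promoters of Cdc6, which loads the helicase at origins (63.6, 63.2, 47.6 and 48.2 CPM, log2 fold change -0.40), and of Pola1, the catalytic subunit of the primase polymerase (83.1, 80.5, 64.8 and 64.7 CPM, -0.34), show the motif in place. They are printed from RefSeq (GRCm38.p6), at chr11:98907901-98908200, plus strand, and chrX:93632106-93632405, minus strand, 5′ to 3′ on the gene's strand, with the motif or its reverse complement in capitals.
Cdc6: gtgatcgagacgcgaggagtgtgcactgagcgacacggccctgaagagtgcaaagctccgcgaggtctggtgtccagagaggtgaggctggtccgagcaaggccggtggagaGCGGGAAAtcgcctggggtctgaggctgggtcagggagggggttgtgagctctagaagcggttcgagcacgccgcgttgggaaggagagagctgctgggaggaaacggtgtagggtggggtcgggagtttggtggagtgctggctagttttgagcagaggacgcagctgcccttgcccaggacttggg
Pola1: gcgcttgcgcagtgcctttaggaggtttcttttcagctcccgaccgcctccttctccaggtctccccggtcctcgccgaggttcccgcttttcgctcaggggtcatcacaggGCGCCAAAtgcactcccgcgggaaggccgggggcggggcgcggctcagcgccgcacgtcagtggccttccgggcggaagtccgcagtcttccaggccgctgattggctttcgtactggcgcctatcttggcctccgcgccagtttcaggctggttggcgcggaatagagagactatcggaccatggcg

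Targets of p53, the tumour suppressor that answers DNA damage and failed mitosis, rose more often than they fell. Of 30 tested members 13 rose and 2 fell, and the median was 0.17. Fas, a death receptor, stood at 5.07, 4.54, 10.3 and 9.65 CPM (log2 fold change 1.05, SE 0.14, adjusted p = 1.97e-06), with both TAK901 libraries above both DMSO libraries. Btg2, an antiproliferative factor, stood at 24.8, 24.5, 37.2 and 37.8 CPM (0.61, adjusted p = 6.15e-07). Trp53inp1, which promotes cell death and autophagy, stood at 66.8, 68.8, 100 and 105 CPM (0.60, adjusted p = 3.16e-09). The BH3-only genes Pmaip1 (Noxa) and Bbc3 (Puma) rose by 0.49 and 0.42, and Ccng1, cyclin G1, rose by 0.35. Mdm2, which marks p53 for destruction, stood at 131, 136, 156 and 152 CPM (0.21, adjusted p = 0.00158). Bax (0.01), Gadd45a (0.06) and Trp53 itself (-0.08) did not pass, and Tigar (-0.27) and Ddit4 (-0.18) fell. The number of rises lay between 9 and 15 over the alternative settings, and the falls numbered 0 without TAK901 replicate 2 and 1 without any other library. Genes of homologous recombination and the Fanconi pathway, which repair double strand breaks and crosslinks, gave 8 falls and 1 rise of 29. Dna2 and Exo1, nucleases that resect broken ends, fell by 0.48 and 0.32, and Brca2, a mediator of strand invasion, rose by 0.22. Without TAK901 replicate 2 that list gave 2 falls and 0 rises.

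Genes of ribosome assembly fell almost throughout. Of 28 tested genes of ribosome biogenesis 26 fell and 0 rose, and the median log2 fold change was -0.34. The remaining 2, Polr1a and Polr1c of RNA polymerase I, had values of -0.13 and -0.12. Nop56, a core protein of the box C/D particles that methylate ribosomal RNA, stood at 278, 276, 190 and 189 CPM (log2 fold change -0.55, SE 0.04, adjusted p = 6.74e-10). Ncl (nucleolin) stood at 1665, 1612, 1318 and 1267 CPM (-0.34), and Npm1 (nucleophosmin) at 1436, 1326, 1065 and 1048 CPM (-0.39). In each of these genes the groups lay further apart than the replicates. Polr1b, another polymerase I subunit, fell by 0.46 and Dkc1, the pseudouridine synthase, by 0.40. Myc itself fell from 171 and 171 to 144 and 153 CPM (-0.20, adjusted p = 0.0022). Over the alternative settings 20 to 26 members fell. Ribosomal protein genes fell as well, 21 of 28 with 0 rises and a median of -0.24, led by Rpl8 at 1408, 1310, 1084 and 1000 CPM (-0.38, adjusted p = 1.65e-06).

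Genes that make nucleotides, polyamines and methyl groups, a list of 24 drawn up after the values had been seen, showed 18 falls and 0 rises, with a median of -0.28. Cad, which starts pyrimidine synthesis, stood at 255, 263, 198 and 199 CPM (log2 fold change -0.39, adjusted p = 2.99e-07). Srm, spermidine synthase, stood at 58.8, 61.7, 40.2 and 39.5 CPM (-0.60, adjusted p = 3.47e-08), and Ahcy, which clears the by-product of methylation, at 110, 105, 70.8 and 73.9 CPM (-0.57, adjusted p = 7.21e-09). Odc1, the entry enzyme of polyamine synthesis, fell by 0.36. Along the purine pathway Ppat, Gart, Pfas, Adsl, Atic and Impdh2 fell, by 0.23 to 0.42, while Paics (-0.11), Adss (-0.01) and Prps2 (0.06) did not pass.

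Lysosomal genes went the other way. Of 32 tested 22 rose and 2 fell, with a median of 0.24, and 18 to 22 rose over the alternative settings. Ctsa, a protease that also protects other hydrolases, stood at 173, 174, 239 and 256 CPM (log2 fold change 0.52, SE 0.05, adjusted p = 4.06e-09). Tpp1, a peptidase, stood at 116, 123, 154 and 166 CPM (0.42, adjusted p = 3.94e-07). Atp6v0d1, a subunit of the proton pump, stood at 64.3, 64.1, 84.9 and 83.5 CPM (0.39, adjusted p = 3.11e-06). In these 3 genes both TAK901 libraries were above both DMSO libraries. Gpnmb, a lysosomal membrane glycoprotein, had the largest rise of the list, from 38.3 and 36.8 to 52.1 and 55.8 CPM (0.53, adjusted p = 5e-07). The glycosidases Hexa, Gla and Neu1 rose by 0.35 to 0.41, the membrane proteins Lamp1 and Lamp2 by 0.26 and 0.24, and the cholesterol carriers Npc1 and Npc2 by 0.26 and 0.28. The falls were Ctsl, a protease that cells also secrete, from 538 and 514 to 424 and 408 CPM (-0.34), and Scarb2 (-0.18). Tfeb, a transcription factor of lysosomal genes, did not pass (-0.06, adjusted p = 0.758).

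Promoters of the ribosome biogenesis and lysosomal genes were read for the E-box CACGTG. The motif was chosen after the values had been seen. It is its own reverse complement, and it forms the middle of the CLEAR element known from lysosomal genes. It stood in 7 of 24 matched ribosome biogenesis genes (29.2%) and 9 of 23 matched lysosomal genes (39.1%). The share over all genes with RefSeq promoters was 8.09%. Other lists also lay above that share, with 17.9% for the integrated stress response, 15.6% for replication and 14.3% for ribosomal proteins. Targets of Nrf2 (4.35%) and NF-kB (5.26%) lay below it. The full CLEAR element stood in 1 of 23 matched lysosomal genes (4.35%) and 0 of 24 matched ribosome biogenesis genes. It also stood in 1 of 19 matched NF-kB targets (5.26%), and its share over all genes with RefSeq promoters was 0.37%. The lysosomal share of 39.1% is therefore that of the E-box and not of the full CLEAR element. These shares were not tested, and the ribosome biogenesis and lysosomal lists moved in opposite directions. Examples printed in the same way are Nop2, a ribosomal RNA methyltransferase (chr6:125131633-125131932, plus strand), and Mybbp1a, a nucleolar protein (chr11:72441077-72441376, plus strand), which fell by 0.46 and 0.35, and Ctsa (chr2:164833523-164833822, plus strand) and Gla, a galactosidase (chrX:134600956-134601255, minus strand), which rose. The E-box is in capitals.
Nop2: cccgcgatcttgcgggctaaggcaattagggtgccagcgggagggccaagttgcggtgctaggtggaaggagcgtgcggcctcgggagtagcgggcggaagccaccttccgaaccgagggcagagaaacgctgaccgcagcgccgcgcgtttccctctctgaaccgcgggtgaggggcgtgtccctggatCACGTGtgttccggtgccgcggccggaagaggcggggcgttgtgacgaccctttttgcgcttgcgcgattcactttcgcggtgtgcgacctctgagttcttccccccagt
Mybbp1a: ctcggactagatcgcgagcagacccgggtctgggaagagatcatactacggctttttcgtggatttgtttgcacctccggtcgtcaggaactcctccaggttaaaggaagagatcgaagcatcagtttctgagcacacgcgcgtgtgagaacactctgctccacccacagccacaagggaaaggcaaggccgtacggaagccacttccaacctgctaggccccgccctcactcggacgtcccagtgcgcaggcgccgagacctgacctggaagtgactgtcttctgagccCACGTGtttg
Ctsa: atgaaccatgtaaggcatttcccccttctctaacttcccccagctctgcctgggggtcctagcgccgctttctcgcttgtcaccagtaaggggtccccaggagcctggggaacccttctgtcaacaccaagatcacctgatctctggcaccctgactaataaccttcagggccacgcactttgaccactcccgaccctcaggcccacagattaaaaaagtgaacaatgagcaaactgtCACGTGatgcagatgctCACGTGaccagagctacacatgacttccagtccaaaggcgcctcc
Gla: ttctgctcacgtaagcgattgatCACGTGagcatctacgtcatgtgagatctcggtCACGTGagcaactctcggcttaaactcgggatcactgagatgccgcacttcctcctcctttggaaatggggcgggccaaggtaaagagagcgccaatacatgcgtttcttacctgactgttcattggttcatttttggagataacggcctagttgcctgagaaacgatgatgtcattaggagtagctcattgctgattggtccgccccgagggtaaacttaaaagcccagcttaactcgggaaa

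Genes of amino acid supply under Atf4, the factor of the integrated stress response, mostly fell: 19 of 31 fell and 4 rose, with a median of -0.19. The serine pathway genes Phgdh, Psat1 and Psph fell by 0.38, 0.50 and 0.48, and Psat1 stood at 322, 322, 229 and 227 CPM (adjusted p = 3.19e-09). Pycr1, the last enzyme of proline synthesis, stood at 18.1, 15.2, 10.1 and 10.7 CPM (log2 fold change -0.67, adjusted p = 4.77e-05), and Asns, asparagine synthetase, at 125, 120, 92.5 and 93.9 CPM (-0.39). Atf4 itself fell from 300 and 291 to 241 and 249 CPM (-0.27, adjusted p = 5.12e-05). The rises were Stc2 (0.50), Sesn2 (0.29), Slc7a11 (0.25) and Vldlr (0.15), and Ddit3 (CHOP) did not pass (-0.12, adjusted p = 0.242). Among 28 of 32 genes matched to promoters, 11 (39.3%) held the CARE motif TGATGNAA, to which Atf4 is known to bind. Of all genes with RefSeq promoters 4.51% held it. The list was drawn up for genes under Atf4, and its share covers members that fell, rose or did not pass. It was not tested and says nothing about the treatment. Genes of the unfolded protein response gave 8 falls and 2 rises of 22, led by Manf, a factor secreted under stress of the endoplasmic reticulum (-0.31), and 2 falls and 1 rise without TAK901 replicate 2. Without DMSO 4 that list gave 6 falls and 1 rise.

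Glycolysis and hypoxia genes fell in 18 of 31 cases, with 1 rise and a median of -0.18. Ldha, lactate dehydrogenase, stood at 2053, 1821, 1430 and 1389 CPM (log2 fold change -0.46, adjusted p = 2.2e-07), and Pgk1 at 1314, 1175, 1058 and 1015 CPM (-0.26, adjusted p = 2.85e-04). DMSO 3 lay above DMSO 4 in both genes. Without DMSO 3 the list gave 9 falls, and without TAK901 replicate 2 it gave 11. Hif1a, the oxygen-regulated factor, was the rise, from 372 and 364 to 431 and 444 CPM (0.25). Vegfa (0.06) and Pfkfb3 (0.04) did not pass.

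Antioxidant genes under Nrf2 gave 9 rises (32.1%) and 4 falls (14.3%) of 28, beside 11.9% and 13.7% of all genes. The median was 0.05, and the rises were the larger changes. G6pdx, the entry enzyme of the pentose phosphate pathway (chrX:74409483-74429194 in GRCm38), stood at 83.2, 80.2, 161 and 158 CPM, a 1.95-fold rise (log2 fold change 0.97, SE 0.05, adjusted p = 4.99e-14). Gstm1, a glutathione transferase, stood at 137, 135, 217 and 236 CPM (0.74, adjusted p = 9.62e-12), and Gclc, the rate-limiting enzyme of glutathione synthesis, at 421, 424, 614 and 623 CPM (0.55, adjusted p = 6.46e-10). In all 3 the TAK901 libraries were far above DMSO relative to the gap between replicates. Nqo1, a quinone reductase, rose by 0.41, but Hmox1 (-0.07), Srxn1 (-0.02) and Gclm (0.02) did not pass and Txnrd1, thioredoxin reductase, fell by 0.22. Without DMSO 3 the rises numbered 13 and the falls 2, without DMSO 4 they numbered 8 and 6 with a median of -0.0079, and without TAK901 replicate 2 they numbered 10 and 2.

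Transcripts of the mitochondrial genome rose, 9 of 12 tested, with a median of 0.46. Mitochondrially encoded genes took 1.94 and 2.04% of gene reads in DMSO 3 and 4 and 2.64 and 2.98% with TAK901. The abundant mt-Co1 stood at 7616, 7735, 10109 and 11444 CPM (log2 fold change 0.49, adjusted p = 2.88e-07), and mt-Nd5 at 1647, 1718, 2436 and 2770 CPM (0.63, adjusted p = 1.86e-09). For mt-Co3 the rise came from replicate 2 (14.1, 13.6, 16.4 and 40.3 CPM), and its call was lost without that library. Of 30 nuclear genes of oxidative phosphorylation 0 rose and 6 fell (20.0%), a share near the 13.7% of all genes. Cycs, cytochrome c, fell from 88.5 and 92.3 to 71.8 and 72.0 CPM (-0.33). The mitochondrial share thus moved with the treatment, and with mitochondrially encoded genes left out of the counts 3735 genes changed. The count of falls among the nuclear genes was 1 without TAK901 replicate 2 and 10 without DMSO 4.

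**Figure D2:**
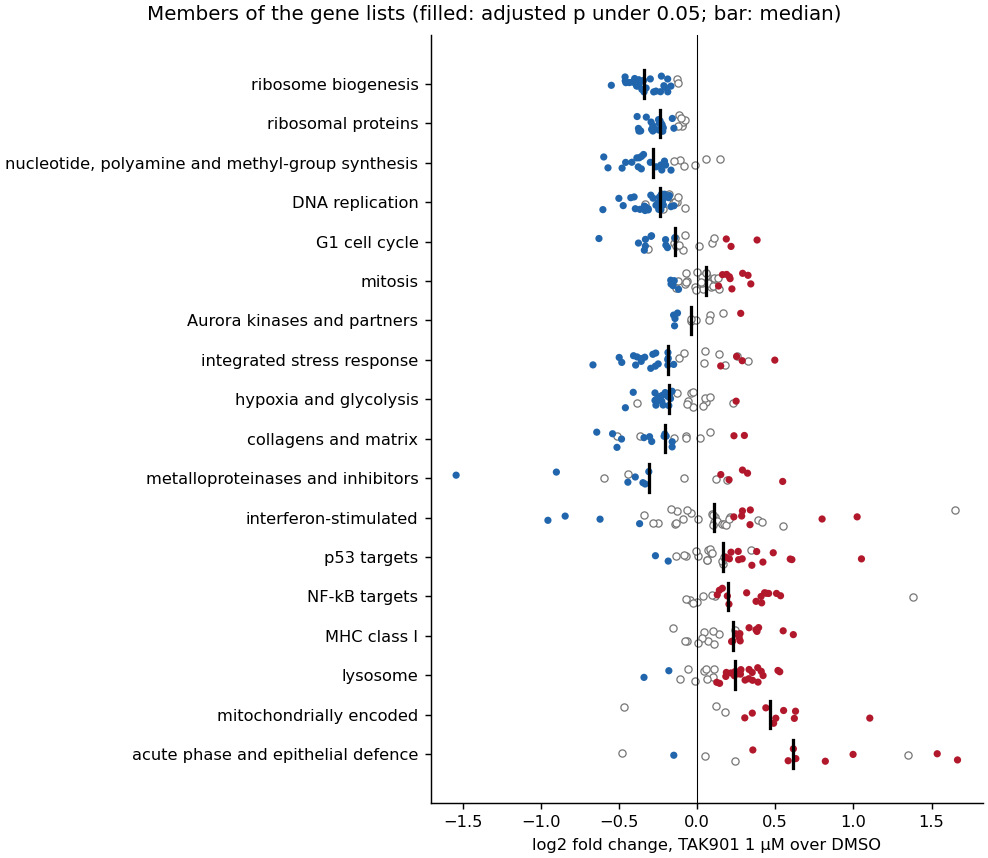
Log2 fold change of TAK901 1 µM over DMSO (horizontal axis) for the tested members of 18 gene lists (rows), 1 point per gene; filled points passed the threshold (red higher, blue lower), open points did not, and the black bar is the median of the list. Ribosome biogenesis lies wholly to the left of 0 with a median of -0.34, and the lysosome list lies mostly to the right with a median of 0.24.

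Secreted defence proteins held several of the best-supported rises. The lists used for them were drawn up after the values had been seen, so their counts support nothing by themselves. C3, the central complement component (chr17:57203970-57228136), stood at 245, 244, 489 and 498 CPM, a 2.02-fold rise (log2 fold change 1.01, SE 0.04, adjusted p = 1.45e-15). The replicates differed by far less than the groups. Of 18 tested complement genes 6 rose (33.3%) and 2 fell (11.1%), a share of falls near the 13.7% of all genes. C1s1 and C1ra, proteases that open the classical pathway, rose by 0.96 and 0.57, while the receptor C3ar1 fell from 5.89 and 6.08 to 3.18 and 3.27 CPM (-0.89).

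Of 13 tested acute phase and epithelial defence genes 8 rose and 1 fell, with a median of 0.62. Ltf, the iron-binding lactoferrin (chr9:111019271-111042767), stood at 7.31, 6.97, 24.2 and 21.5 CPM, a 3.17-fold rise (log2 fold change 1.67, SE 0.11, adjusted p = 9.62e-12). Lcn2, which withholds iron from bacteria, stood at 55.2, 57.5, 95.3 and 103 CPM (0.82, adjusted p = 2.08e-11), and Slpi, a protease inhibitor, at 13.5, 11.9, 26.8 and 24.1 CPM (1.00, adjusted p = 1.88e-08). Cp (ceruloplasmin) and Lbp, the lipopolysaccharide-binding protein, rose by 0.62 and 0.63, and Cd14, the receptor that Lbp serves, by 0.36. Saa3 (-0.48, adjusted p = 0.197) did not pass, and Wfdc2 fell by 0.15.

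NF-kB targets rose in 14 of 22 cases with 0 falls and a median of 0.20, where 11.9% of all genes rose. Nfkbia, the inhibitor that NF-kB induces, stood at 87.2, 89.8, 122 and 114 CPM (log2 fold change 0.41, adjusted p = 9.26e-07). Cxcl1, a neutrophil chemokine, stood at 127, 141, 183 and 185 CPM (0.46, adjusted p = 1.06e-07), and Birc3, an inhibitor of apoptosis, rose by 0.44. Tnfaip3 (0.11, adjusted p = 0.0721) and Icam1 (-0.07) did not pass, and Il6 and Tnf had too few reads. Without TAK901 replicate 2 the rises numbered 7, and in DESeq2 6. Chemokines and growth factors for myeloid cells gave 6 rises and 2 falls of 20. Csf1, the macrophage growth factor, stood at 324, 339, 453 and 455 CPM (0.45, adjusted p = 2.07e-08), and Cxcl3 rose by 0.47, whereas Cxcl5, a related chemokine, fell from 1665 and 1654 to 1249 and 1358 CPM (-0.35, adjusted p = 4.66e-06).

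Antigen presentation genes of MHC class I rose in 12 of 23 cases with 0 falls and a median of 0.23. B2m, the light chain, stood at 288, 311, 354 and 370 CPM (log2 fold change 0.28, adjusted p = 6.31e-05). The heavy chains H2-K1 and H2-D1 rose by 0.27 and 0.25, Tapbp, which loads peptide, by 0.33, and H2-T23, which encodes Qa-1, by 0.62. These chains share sequence with near-identical copies, so their counts are uncertain. The count of rises was 7 without TAK901 replicate 2 and 5 in DESeq2.

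Interferon-stimulated genes did not move as a block: 7 of 37 rose (18.9%) and 4 fell (10.8%), with a median of 0.11. Over all genes 11.9% rose and 13.7% fell. Gbp2, a guanylate-binding protein, stood at 5.62, 6.52, 11.8 and 12.8 CPM (log2 fold change 1.02, adjusted p = 8.14e-07) and Stat2 rose by 0.34. Isg20, an exonuclease, stood at 32.0, 31.0, 19.9 and 20.9 CPM (-0.62, adjusted p = 1.43e-06), and Ifit1 and Rsad2 fell from low levels. The T cell attracting chemokines were scarce. Ccl5 stood at 1.46, 1.42, 1.18 and 0.991 CPM and Cxcl10 at 0.959, 0.689, 0.560 and 0.881 CPM; neither passed (adjusted p = 0.366 and 0.864), Cxcl11 did not pass (adjusted p = 0.406), and Cxcl9 was not tested. Cd274, which encodes PD-L1, stood at 3.79, 3.85, 3.86 and 3.74 CPM and did not pass (adjusted p = 0.970). Cxcl16 was the 1 of 5 tested T and NK cell chemokines that rose (0.49). Stat3 stood at 65.5, 67.0, 72.7 and 71.2 CPM and did not pass (0.12, adjusted p = 0.112), and its feedback inhibitor Socs3 fell from 45.9 and 41.2 to 33.6 and 32.0 CPM (-0.41, adjusted p = 7.12e-05). Of 26 tested genes of the STAT3 axis 8 rose and 5 fell, and 3 fell without TAK901 replicate 1. The interferon list gave 8 rises and 2 falls without TAK901 replicate 2.

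Matrix genes fell more often than they rose. Of 21 collagens and matrix proteins 12 fell and 2 rose, with a median of -0.21. Lama3 and Lamb3, laminin chains of the basement membrane, fell, Lama3 from 63.0 and 63.6 to 40.7 and 45.7 CPM (log2 fold change -0.54, adjusted p = 2.44e-07) and Lamb3 by 0.30. Fn1 (fibronectin) was a rise, from 3346 and 3351 to 3864 and 4021 CPM (0.24). Acan, the cartilage proteoglycan aggrecan, which is in none of the lists, stood at 98.5, 97.7, 49.3 and 50.2 CPM, a level 1.97-fold lower with TAK901 (-0.98, SE 0.05, adjusted p = 2.59e-13). Igfbp3, which binds insulin-like growth factors, stood at 228, 229, 128 and 126 CPM (-0.85, adjusted p = 1.58e-13), and was singled out after its values had been seen.

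Metalloproteinases and their partners gave 7 falls and 5 rises of 17, with a median of -0.31. Mmp3 (stromelysin 1) stood at 40.9, 40.5, 20.0 and 23.1 CPM (log2 fold change -0.90, adjusted p = 2.42e-09) and Mmp9, a gelatinase, at 73.2, 67.4, 56.3 and 54.3 CPM (-0.35, adjusted p = 5.35e-05). Plau (urokinase) and its receptor Plaur fell by 0.40 and 0.31, while the inhibitor Timp2 rose from 718 and 720 to 884 and 914 CPM (0.32). The rises numbered 3 without DMSO 3, 1 without DMSO 4, 1 without TAK901 replicate 2 and 1 in DESeq2, and the falls 5 to 7 over all settings. A list of TGF-beta targets gave 7 rises and 4 falls of 19, with 3 rises without either TAK901 library and 4 without DMSO 3, and 2 falls without TAK901 replicate 2. YAP targets gave 6 falls (25%, where 13.7% of all genes fell) and 0 rises of 24, with a median of -0.03, and 4 falls in DESeq2, without DMSO 4 (with 2 rises) and without TAK901 replicate 1. The falls included Ankrd1 at 243, 236, 188 and 170 CPM (-0.43) and the growth factor Areg at 75.8, 82.3, 56.8 and 53.4 CPM (-0.53). Of 27 genes of ERK feedback and early response 7 fell (25.9%), including the phosphatase Dusp5 (-0.47) and the factor Etv4 (-0.39). Rises numbered 4 (14.8%, near the 11.9% of all genes), and 0 in DESeq2. Those rises numbered 1 without DMSO 3, 2 without DMSO 4 and 1 without TAK901 replicate 2.

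Epithelial structure and identity genes moved in both directions. The keratins Krt8 (2941, 2631, 2283 and 2288 CPM) and Krt18 (1487, 1356, 1111 and 1131 CPM) fell by 0.29 and 0.34, and 7 of 13 tested keratins fell and 1 rose (4 and 1 without TAK901 replicate 2). Cdh1, E-cadherin, rose from 613 and 608 to 737 and 735 CPM (0.27, adjusted p = 4.32e-05), and Vim (vimentin) fell by 0.15. Of 12 tested endoderm transcription factors 5 rose and 0 fell, among them Onecut2 (0.36), Cdx2 (0.33), Pdx1 (0.24) and Hnf4a (0.23). Among 13 tested genes of gut differentiation 1 rose and 4 fell, including Cdh17, a cadherin of intestinal epithelium, from 174 and 167 to 130 and 140 CPM (-0.33).

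Ranked by size, the 12 largest rises and 12 largest falls were taken among changed, named genes of at least 2 CPM whose groups did not overlap. After Ltf, the better measured rises were Agmo, an enzyme that cleaves ether lipids, at 4.98, 5.27, 13.1 and 12.6 CPM (log2 fold change 1.32, adjusted p = 1.6e-08), Lrrc75b at 7.72, 7.62, 18.1 and 16.4 CPM (1.16, adjusted p = 1.5e-08) and F13a1, the A chain of coagulation factor XIII, at 4.98, 4.13, 9.09 and 11.2 CPM (1.18, adjusted p = 8.95e-07). Steap4, a metalloreductase, rose by 1.5 from 1.42 and 0.972 CPM in DMSO. A530020G20Rik and Gm20633 are antisense genes, and since the counting strand is not given in the sources used here their reads cannot be told from those of their partners.

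Among the largest falls Prl2c2 and Prl2c3, which encode proliferins, had the highest levels. Prl2c2 (chr13:12996125-13005383) stood at 172, 160, 66.7 and 72.2 CPM (log2 fold change -1.25, adjusted p = 1.45e-15) and Prl2c3 at 21.5, 21.5, 7.16 and 7.34 CPM (-1.57, adjusted p = 2.08e-11). The 2 genes have near-identical copies, so reads may have been lost or shared between them, as also for Srp54c (-1.91). Col27a1, a fibrillar collagen, stood at 16.2, 18.8, 7.10 and 6.09 CPM (-1.43, adjusted p = 1.46e-09), and Dll4, a Notch ligand, at 7.36, 7.82, 2.68 and 3.34 CPM (-1.30, adjusted p = 1.25e-06). Cbs, which makes cystathionine from homocysteine, fell from 4.66 and 4.66 to 2.18 and 1.76 CPM (-1.27), and the kinase gene Syk from 3.06 and 3.40 to 1.12 and 1.69 CPM (-1.14).

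**Figure D3:**
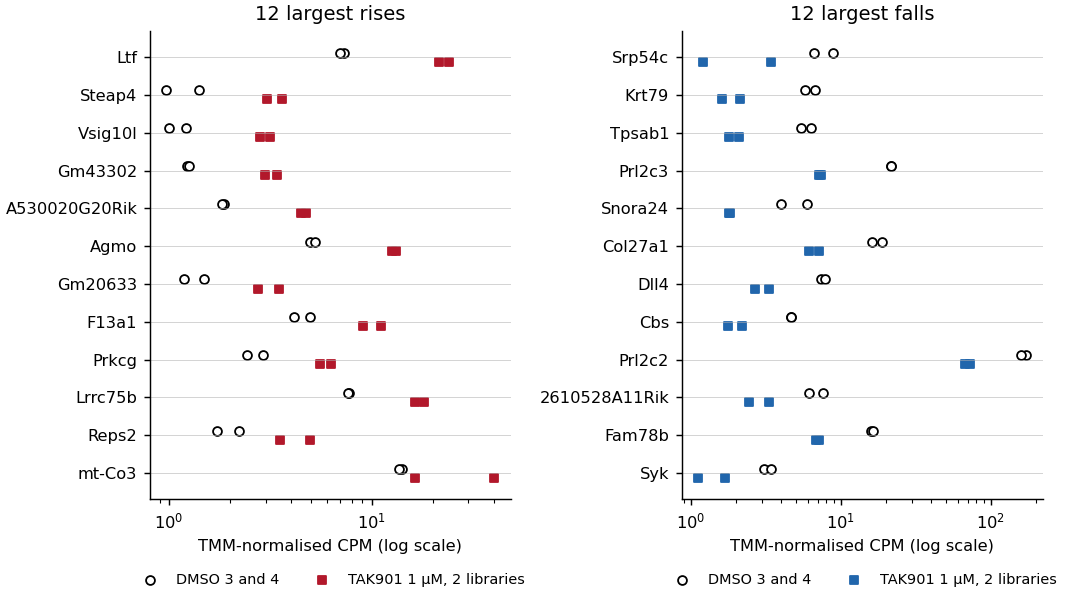
TMM-normalised CPM (log scale) of the 12 largest rises (left) and 12 largest falls (right) in single libraries, with DMSO 3 and 4 as open circles and both TAK901 1 µM libraries as filled squares. The groups are apart in every row because only genes whose groups did not overlap were taken. The row of mt-Co3 shows 1 TAK901 library at 40.3 CPM and the other at 16.4 CPM.

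The doses were compared directly, in a fit of 6 libraries in which DMSO entered for the spread only. TAK901 at 2 µM differed from 1 µM in 77 of 14505 genes (0.531%), 44 higher and 33 lower. This comparison shares the 1 µM libraries with the one against DMSO, so the values stand side by side and their likeness is no evidence. The 2 µM libraries were the shallowest of the 6, and 1800 genes had an unadjusted p under 0.05. The count of changed genes was 35 without 1 µM replicate 1, 19 without 1 µM replicate 2, 25 without 2 µM replicate 1 and 310 without 2 µM replicate 2. Values below are for DMSO 3 and 4, then 1 µM replicates 1 and 2, then 2 µM replicates 1 and 2.

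Ltf stood at 7.37, 7, 24.3, 21.5, 39.2 and 49.6 CPM, higher again at 2 µM (log2 fold change 2 over 1 µM 0.94, SE 0.12, adjusted p = 6.62e-05). C3 stood at 247, 245, 491, 499, 695 and 727 CPM (0.52, adjusted p = 4.96e-06), and Lcn2 at 55.6, 57.7, 95.7, 103, 157 and 124 CPM (0.52, adjusted p = 4.68e-04). In these 3 genes each dose lay apart from the other and from DMSO. Slpi, Lbp, Cp and Nos2 were also higher at 2 µM, so that 6 of 14 tested genes of the acute phase and epithelial defence list were higher and 0 lower. Selenbp1, a selenium-binding protein, showed another pattern, with 32.6 and 22 CPM in both solvent libraries, 30.3 and 28.0 CPM at the lower dose and 58.6 and 54.9 CPM at the higher (0.98, adjusted p = 9.43e-05). Rsph3a, a component of motile cilia, likewise overlapped with DMSO at 1 µM (9.94 and 11.7 CPM) and higher at 2 µM (24.8 and 19.8 CPM; 1.06, adjusted p = 4.43e-04). Unc93b1, which carries Toll-like receptors, stood at 7.32 and 6.66 CPM at 1 µM and 12.1 and 13.5 CPM at 2 µM (0.87, adjusted p = 0.0203). None of these 3 genes passed the test of 1 µM against DMSO (edgeR adjusted p = 0.554, 0.988 and 0.466).

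Nptx1, a secreted pentraxin of neurons, stood at 58.5, 63.0, 36.3, 36.5, 22.5 and 21.1 CPM, a further fall (log2 fold change 2 over 1 µM -0.73, adjusted p = 4.68e-04). Acan stood at 99.3, 98.1, 49.5, 50.4, 34.7 and 32.5 CPM (-0.56, adjusted p = 0.00132), Mmp9 at 73.8, 67.6, 56.6, 54.5, 36.9 and 37.5 CPM (-0.58, adjusted p = 0.00105) and Mmp3 at 41.2, 40.6, 20.1, 23.2, 15.9 and 11.9 CPM (-0.61, adjusted p = 0.0445). Prl2c3 fell to 4.14 and 2.11 CPM from 7.19 and 7.36 CPM (-1.12, adjusted p = 0.0358). In ribosome biogenesis 5 of 28 genes were lower at 2 µM, namely Nop2, Rrp12, Utp20, Polr1b and Ddx21. Of the glycolysis and hypoxia list, mostly lower at 1 µM than in DMSO, 4 of 31 were higher at 2 µM than at 1 µM: Pfkp, Bnip3, Ndrg1 and Aldoc. Bnip3 stood at 166, 139, 118, 133, 176 and 149 CPM, so the 2 µM libraries lay among or above DMSO. Gm10800 (log2 fold change 4.10) rested on 1 library, 2 µM replicate 1, with 90 reads beside 6 in replicate 2.

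**Figure D4:**
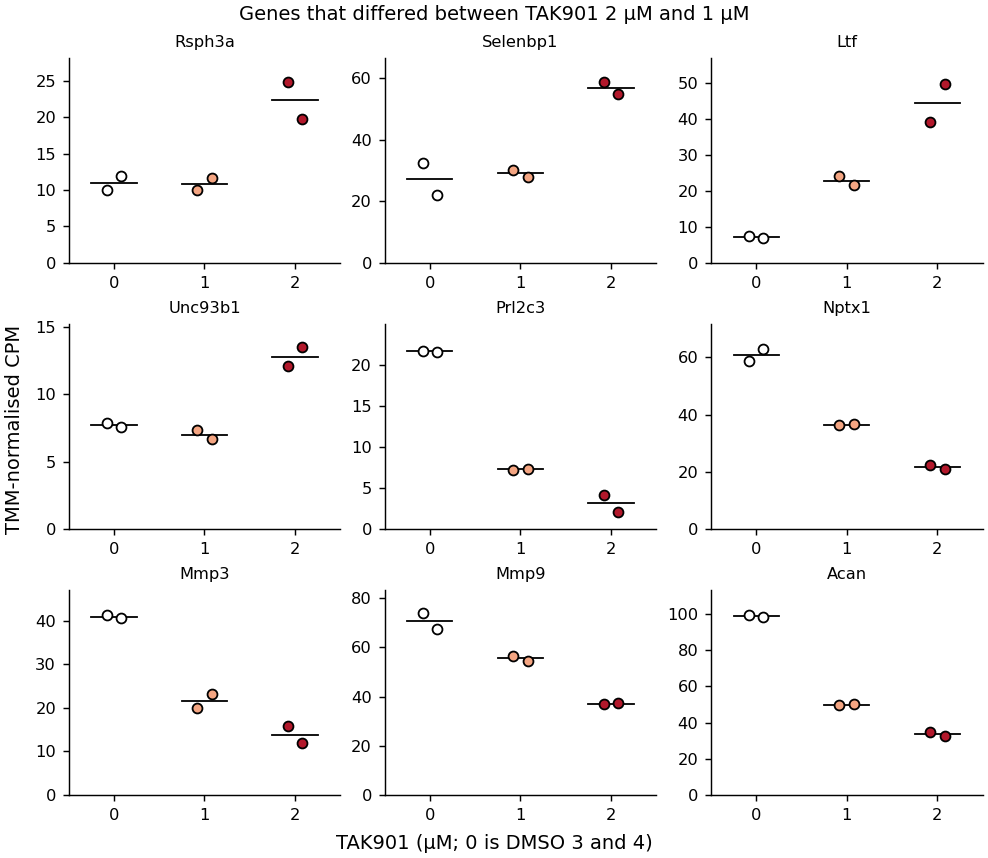
TMM-normalised CPM (vertical axes, from 0) of 9 genes named by the size of their difference between the doses, against the TAK901 dose in µM, where 0 is DMSO 3 and 4; points are libraries and horizontal lines are means of 2. Rsph3a, Selenbp1 and Unc93b1 lie near DMSO at 1 µM and higher at 2 µM, whereas Ltf rises and Prl2c3, Nptx1, Mmp3, Mmp9 and Acan fall at both doses.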

How the data were processed

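The files hold raw read counts per gene, deposited by the authors as 1 table per library with 38924 gene IDs. Per the submitters' processing notes, reads met TopHat and Bowtie, HTSeq, FastQC 0.11.3 and DESeq2, in no stated order, with mm10 as the mouse build; neither the other versions nor the strand setting is stated there. Summary lines of the counter were left out of library sizes and tests. Gene names and coordinates came from the GRCm38 annotation and promoters from RefSeq; 37607 IDs were named. Counts were fitted with edgeR 4.0.16 in R 4.3.3 (filterByExpr, TMM, quasi-likelihood test, two-sided, Benjamini-Hochberg adjustment, threshold 0.05), on the 4 libraries for 1 µM against DMSO and on 6 libraries for the doses. TMM factors lay close to 1, so CPM before and after scaling differ little; marker levels are unscaled CPM.

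The members, gene lists and tests were chosen with earlier results of these data known. Text genes were the targets of the compound and fixed regulators, the 12 largest changes per direction (5 for the doses) among changed genes of at least 2 CPM whose groups did not overlap, and up to 3 members per list and direction; other list members, Acan against DMSO and Igfbp3 were chosen after their values were seen, as were the complement, acute phase and nucleotide lists and the E-box. In counts drawn from the means of these libraries, 67.5% of 200 genes changed by 0.5 (log2) were recovered for 1 µM against DMSO, 82.5% for 1 and 97.5% for 2. Changes below 0.5, the size of most changes here (median 0.28), were not drawn. Nor was a share of changed genes as large as 25.7%. No pair of libraries was identical; chi-square per degree of freedom was 3.32 between the DMSO libraries, 2.45 between the 1 µM libraries and 11.4 to 19.9 between groups. A level of 3 reads, the limit that a count of 0 allows, corresponds to 0.110 to 0.188 CPM, for counting error only. Alternatives covered scaling, low-count filters, DESeq2 1.42.0, the libraries fitted and leaving out each library.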

Additional observations from a re-analysis of the deposited data

Results flagged for a closer look

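The 10 genes below were listed because their levels at 2 µM and 1 µM TAK901 differed by the edgeR test of that difference, with no overlap between the doses. Log2 differences of 2 over 1 µM were 4.10 for Gm10800, 1.06 for Rsph3a, 0.98 for Selenbp1, 0.94 for Ltf and 0.87 for Unc93b1 among the higher genes, and -1.12 for Prl2c3, -0.73 for Nptx1, -0.61 for Mmp3, -0.58 for Mmp9 and -0.56 for Acan among the lower ones. Selenbp1, Ltf, Nptx1, Mmp9 and Acan passed the threshold whichever library was left out. Rsph3a, Unc93b1, Prl2c3 and Mmp3 lost their call without at least 1 of the libraries. Gm10800 was carried by 2 µM replicate 1: without it the log2 difference was 1.56 (edgeR adjusted p = 0.666). DMSO 3 was also high in Gm10800, at 2.76 CPM against 0.163 CPM in DMSO 4. The groups of 2 libraries are too small for a test of single outlying libraries.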

How the results depend on the processing

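For TAK901 1 µM against DMSO the count of 3719 changed genes was 1918 in DESeq2, of which 1911 were also changed the same way in edgeR, 1579 in DESeq2 without independent filtering (an alternative chosen after seeing the data), and 2190 to 3346 when a library was left out. For 2 against 1 µM the count of 77 was 49 in DESeq2, 196 without a low-count filter, and 19 to 310 when a library was left out. The causes were not tested. The naming rule gave 188 genes that passed the threshold, some of them not printed here; 118 passed under every alternative that gave a value, 70 lost the call under at least 1 and 0 changed sign. Genes named outside the rule were not part of this count. Among genes of the rule that did not pass, leaving out a library moved the log2 fold change of Aurka from -0.151 to 0.0746, of Incenp from -0.0475 to 0.0365, of Cd274 from -0.0309 to 0.0144 and of Cxcl10 from -0.541 to 0.124. Total-count scaling gave 0.0132 for Incenp and 0.00739 for Cd274, and a filter at 5 CPM gave 0.00198 for Incenp. No paired analysis was possible because DMSO 3 and 4 share no replicate number with the TAK901 libraries. Between the doses the deviations of same-numbered libraries correlated at 0.0176 across genes. With the 2 µM libraries this shallow, that value cannot show whether same-numbered libraries were handled together. A replicate block gave 102 changed genes beside 99 in the same 4 libraries without it. Depth limits the 2 µM libraries most.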
